A study of Mus musculus with 12 samples.

Results

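The genes described here are 10 members of the NRF2 antioxidant response: the transcription factor gene Nfe2l2, its inhibitor gene Keap1, and the target genes Slc7a11, Gclc, Gclm, Gsr, Txnrd1, Srxn1, Nqo1 and Osgin1. They were taken by symbol from the array annotation, which named 18193 genes in all, and 21 probe sets carried one of the 10 symbols. ICGN mice, an ICR-derived strain labelled as having nephrotic syndrome, were compared with ICR mice, labelled as normal. Renal cortex was taken from both strains, and its total RNA was hybridised to Affymetrix Mouse Genome 430 2.0 arrays. The 4 groups were ICGN at 8 weeks, ICR at 8 weeks, ICGN at 4 weeks and ICR at 4 weeks, with 3 arrays each and 12 arrays in all. ICGN mice are known to carry a Tns2 mutation, arose in ICR stock and are a separate line, so any other allele that separates the strains is part of every strain comparison. The labels give no sex and do not say how many mice an array holds, so p-values measure the spread between these arrays.

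NRF2, the product of Nfe2l2, is held in the cytoplasm by KEAP1, which hands it to a CUL3 ubiquitin ligase for degradation. Oxidants and electrophiles modify KEAP1, and NRF2 then accumulates, pairs with small MAF proteins and binds antioxidant response elements beside genes of glutathione synthesis, thioredoxin recycling and detoxification. In the kidney the pathway is known for protecting tubule cells from oxidants and toxic compounds. NRF2 also takes part in the transcription of its own gene, and several targets respond to other factors as well.

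The core of the response element is TGACNNNGC, and the AP-1 site TGAGTCA resembles it without being the same. Both were searched on both strands in the RefSeq promoter windows of build GRCm38.p6, which run from 250 bases before a gene's start to 50 after it. Windows were at hand for 8 of the 10 members, all but Gclc and Gsr. The element core was found in 4 of these 8, Nfe2l2, Gclm, Txnrd1 and Srxn1, and in 14.0% of all 27025 genes with a window. The AP-1 site was found in 2 of the 8, Srxn1 and Osgin1, and in 5.9% of all genes. In the members' windows no match of one motif overlapped a match of the other. The windows of Keap1, Slc7a11 and Nqo1 held neither run of letters. The stretches with a match are shown 5′ to 3′ along the gene's strand, since they show which members carry which motif. A match is a description of the letters. Capitals mark the motif, which reads as its reverse complement where the match is on the other strand.
Nfe2l2 (chr2:75704870-75704913, minus strand), element core: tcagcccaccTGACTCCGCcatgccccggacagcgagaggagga
Gclm (chr3:122245398-122245456, plus strand), element core: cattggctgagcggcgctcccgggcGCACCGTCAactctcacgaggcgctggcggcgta
Txnrd1 (chr10:82859089-82859147, plus strand), element core: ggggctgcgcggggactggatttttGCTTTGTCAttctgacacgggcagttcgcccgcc
Srxn1 (chr2:152105397-152105510, plus strand), AP-1 sites: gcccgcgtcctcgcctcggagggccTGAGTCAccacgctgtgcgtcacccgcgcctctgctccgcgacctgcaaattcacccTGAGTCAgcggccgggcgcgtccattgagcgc
Srxn1 (chr2:152105527-152105573, plus strand), element core: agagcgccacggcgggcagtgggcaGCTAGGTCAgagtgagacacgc
Osgin1 (chr8:119437025-119437081, plus strand), AP-1 site: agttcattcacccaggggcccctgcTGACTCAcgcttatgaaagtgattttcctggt

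Signals are the deposited MAS5 intensities after each array was scaled to a common median of 40.4, on a linear scale. The authors had scaled 4-week and 8-week arrays to different targets, so levels of the 2 ages are on one scale only through this step. A gene was tested if it lay above its array's median in at least 3 arrays, and its brightest probe set stood for it. That left 9 members of 12385 genes. Log2 fold changes are given with their standard error after the comparison's median over all tested genes was subtracted, which stood at -0.19 at 8 weeks and -0.02 at 4 weeks before this subtraction. The limma test is on the value before subtraction, and a gene is called, and said to have risen or fallen, at a Benjamini-Hochberg adjusted p of 0.05 or less over all genes. Across genes, arrays of the same group had Pearson r of 0.977 to 0.988 in log2 values, and Tns2 was lower in ICGN at 8 weeks (-1.88) and at 4 weeks (-1.96). Proximal tubule and podocyte markers were measured in all groups, as renal cortex would have them.

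At 8 weeks 5 of the 9 tested members fell in ICGN cortex and none rose. Osgin1 fell 2.46-fold and Gclc 1.93-fold relative to the median gene, Gclm and Nqo1 fell by less, and Keap1 was called lower. Gsr, Txnrd1, Srxn1 and Nfe2l2 did not pass the test. The count of 5 members lower of 9 tested stands beside 26.0% of all genes called lower, and the count of 0 higher beside 8.51%, or 34.5% in either direction. The same 5 members were those whose strains did not overlap, all of them lower in ICGN, against 33.3% of all genes lower without overlap and 44.5% in either direction. With arrays centred on the tested genes 4 members were called lower and 0 higher, against 19.6% and 12.8% of all genes. With quantile normalization it was 2 lower and 1 higher, against 13.4% and 13.7%. With the authors' own scaling it was 3 lower and 1 higher, against 1484 and 2226 of the 12385 genes. Osgin1 and Gclc were among those called lower under each of these 4 scalings. The median of the 9 members was -0.22, and the middle part of all genes, from the lower to the upper quartile, ran from -0.24 to 0.28.

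Osgin1 encodes an oxidative stress-induced growth inhibitor and is a known NRF2 target. Its scaled signals were 169.8, 194 and 172 in the ICGN arrays, against 494, 483 and 569 in the ICR arrays. Every ICGN array lay below every ICR array by a wide margin, and the spread within each strain was small. The log2 fold change was -1.30 ± 0.13 (limma adjusted p = 3.3e-06), and it ranked 432 by size among all genes tested. The value lay between -1.35 and -1.21 when any 1 of the 6 arrays was left out.

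The enzyme that limits glutathione synthesis, glutamate-cysteine ligase, is made of the catalytic subunit encoded by Gclc and the modifier subunit encoded by Gclm. Gclc read 1105, 1634 and 1571 in ICGN at 8 weeks, against 2328, 3264 and 4005 in ICR. The groups did not overlap, although the ICR arrays spread widely, with an SD of 840.0 around 3199. The log2 fold change was -0.95 ± 0.20 (limma adjusted p = 7.6e-04), and the second Gclc probe set was called lower too, at -0.93 ± 0.16. Gclm read 2672, 3115 and 3401 in ICGN, against 3867, 4986 and 5165 in ICR, again without overlap. Its log2 fold change was -0.42 ± 0.14 (limma adjusted p = 0.0037), with -0.47 ± 0.15 in its other probe set, but the call was lost under quantile normalization (adjusted p = 0.154).

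Gsr encodes glutathione reductase, which returns oxidised glutathione to its reduced form. It read 1060.3, 1145 and 1269 in ICGN at 8 weeks, against 1181, 1344 and 1481 in ICR, and the groups overlapped. Its relative log2 fold change was -0.02, with a 95% interval from -0.27 to 0.24. Slc7a11 encodes the cystine carrier of the exchanger that imports cystine for glutathione. Neither of its 2 probe sets exceeded the array median on any of the 12 arrays. Their signals ran from 0.612 to 16.5 under a median of 40.4, so Slc7a11 was not tested and no difference between groups can be read from these probe sets.

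Among the remaining target genes, Nqo1 encodes a quinone reductase often used as a readout of NRF2 activity. It read 262, 219 and 322 in ICGN at 8 weeks, against 337, 398 and 434 in ICR. The groups did not overlap, but the highest ICGN array came close to the lowest ICR array. The log2 fold change was -0.35 ± 0.16 (limma adjusted p = 0.018). The call was lost under the 3 other scalings, without ICGN 8-week replicate 2 (-0.22, adjusted p = 0.0873) and without ICR 8-week replicate 3 (-0.30, adjusted p = 0.0752).

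Neither tested member of the thioredoxin branch was called at this age. Txnrd1, the gene of cytosolic thioredoxin reductase, read 1235, 1328 and 1530.1 in ICGN and 1508, 1749.6 and 1854 in ICR, with overlap (-0.13 ± 0.12, adjusted p = 0.0556). It passed without ICGN 8-week replicate 3 (adjusted p = 0.0248) or ICR 8-week replicate 1 (adjusted p = 0.0329), with a filter at the 75th percentile (adjusted p = 0.0483) and with a replicate block (adjusted p = 0.0253). The p of 0.0556 is for the value before subtraction, -0.32, and the relative value had a 95% interval from -0.39 to 0.13. The other Txnrd1 probe sets stood at 0.03 and 0.20, with overlap, and were not called. Srxn1, the gene of sulfiredoxin, which repairs over-oxidised peroxiredoxins, read 365, 408 and 439.7 in ICGN and 427, 311 and 422 in ICR. These groups overlapped in part, and the value of 0.26 had a 95% interval from -0.14 to 0.65. All 4 Srxn1 probe sets had positive values at 8 weeks, between 0.22 and 0.46, and none was called, although in 1 of them every ICGN array lay above every ICR array (144 in ICGN and 114 in ICR on average).

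Of the regulators, Nfe2l2 read 970.2, 1154 and 1441 in ICGN at 8 weeks and 1083, 928 and 1238 in ICR. The groups overlapped, and the relative log2 fold change was 0.31 ± 0.14 (adjusted p = 0.525). The p belongs to the value before subtraction, 0.12, while the relative value had a 95% interval from 0.006 to 0.61. Nfe2l2 was called higher under quantile normalization (0.44, adjusted p = 0.00302) and under the authors' scaling (0.32, adjusted p = 0.00714). Keap1 read 326, 303 and 303 in ICGN, against 421, 386 and 441 in ICR, with no overlap (-0.22 ± 0.11, adjusted p = 0.0090). That p is for the value before subtraction, -0.41, while the 95% interval of the relative value ran from -0.45 to 0.005 and so included 0. Without ICGN 8-week replicate 3 the relative value was -0.15 (adjusted p = 0.0204). The Keap1 call was lost under quantile normalization (adjusted p = 0.126) and the authors' scaling (adjusted p = 0.276). Its second probe set was not called (-0.11 ± 0.15).

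**Figure D1:**
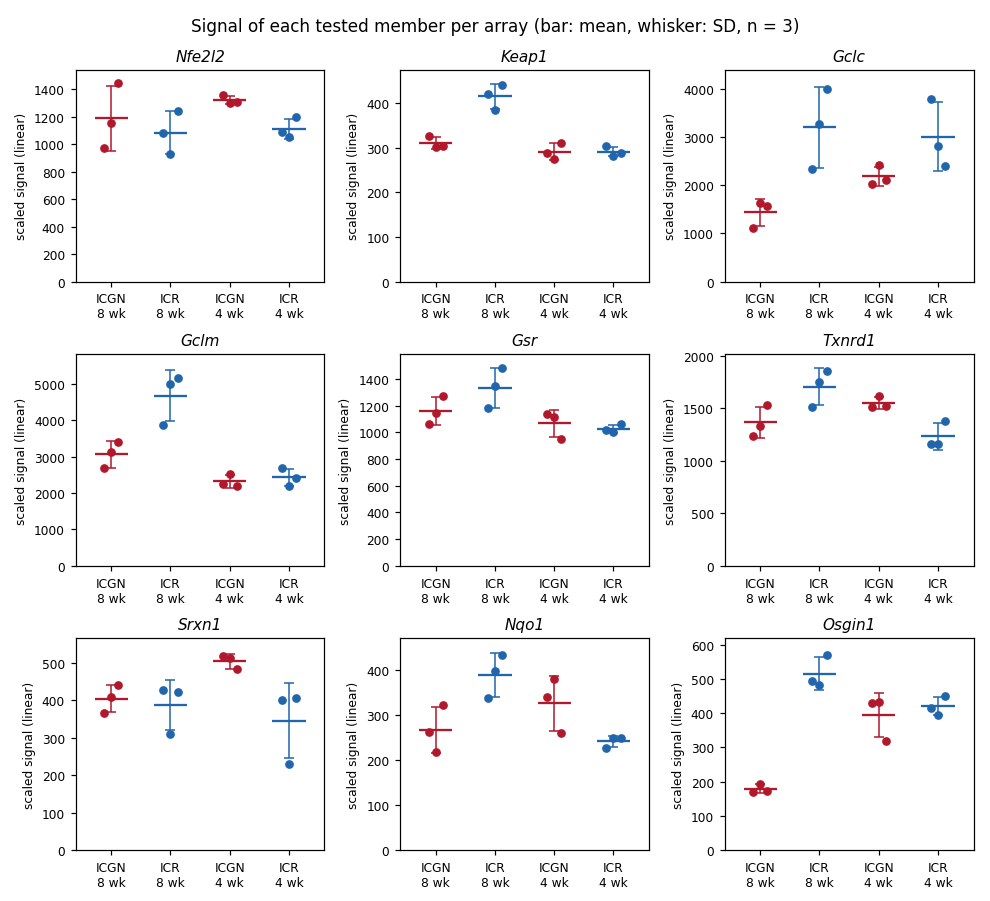
Scaled linear signal (y axis) of each tested member on every array, grouped by strain and age (x axis), with ICGN in red and ICR in blue. Points are arrays, horizontal bars are means and whiskers are SD (n = 3). Osgin1 and Gclc of 8-week ICGN lie clear of 8-week ICR, with Osgin1 at 169.8 to 194 against 483 to 569.

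At 4 weeks no member passed the test, which called 1.60% of all genes higher and 1.38% lower, 2.98% in all, while 4 of the 9, Gclc lower and Srxn1, Nqo1 and Txnrd1 higher, had an unadjusted p under 0.05, as had 1861 of all 12385 genes. For 4 members, Srxn1, Nqo1, Txnrd1 and Nfe2l2, every ICGN array lay above every ICR array, a pattern that 10.8% of all genes showed, with 22.8% not overlapping in either direction. The median of the members was 0.07. Srxn1 and Txnrd1 were called higher under quantile normalization and under the authors' scaling, with adjusted p between 0.016 and 0.0486, but not with arrays centred on the tested genes. Quantile normalization called 2.73% of all genes higher at this age and the authors' scaling 2.71%. The dimmer Txnrd1 probe sets stood at 0.15 and 0.56, with overlap and without a call.

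Srxn1 read 519, 512 and 482 in ICGN at 4 weeks, against 400.2, 230.0 and 406 in ICR. Replicate 2 of ICR was far below the other ICR arrays, and without it the value of 0.60 ± 0.19 (limma adjusted p = 0.12) became 0.36. Txnrd1 read 1511.5, 1613 and 1518 in ICGN, against 1157, 1156 and 1381 in ICR (0.35 ± 0.12, limma adjusted p = 0.187). Nqo1 read 339.7, 380.4 and 261 in ICGN, against 227, 249.9 and 248 in ICR (0.42 ± 0.16, limma adjusted p = 0.226). The ICR arrays lay close together for Nqo1, whereas the ICGN arrays spread, with an SD of 60.8 against 12.7. Nfe2l2 read 1357, 1297 and 1309 in ICGN, against 1088, 1054 and 1195 in ICR (0.27 ± 0.14).

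The glutathione genes gave other values at this age. Gclc read 2033, 2414 and 2105 in ICGN at 4 weeks and 3795, 2813 and 2407.5 in ICR, with overlap by a narrow margin (-0.42 ± 0.20, limma adjusted p = 0.328). The value was -0.23 without ICR replicate 1 and -0.60 without ICR replicate 3. In the second Gclc probe set (-0.38 ± 0.16, limma adjusted p = 0.265) every ICGN array lay below every ICR array. Gclm (-0.04), Gsr (0.07), Osgin1 (-0.08) and Keap1 (0.02) were close to the median gene by their brightest probe sets. The second Gclm probe set stood at -0.24 ± 0.15 and was not called, though every ICGN array lay below every ICR array. The second Gsr probe set stood at 0.26 ± 0.20, with overlap and without a call. For Osgin1 the ICGN arrays read 429, 433 and 319.8, against 416, 396 and 449.7 in ICR, so the strains overlapped at this age. By the brightest probe sets, the 95% intervals of these 4 genes together ran from -0.37 to 0.32.

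**Figure D2:**
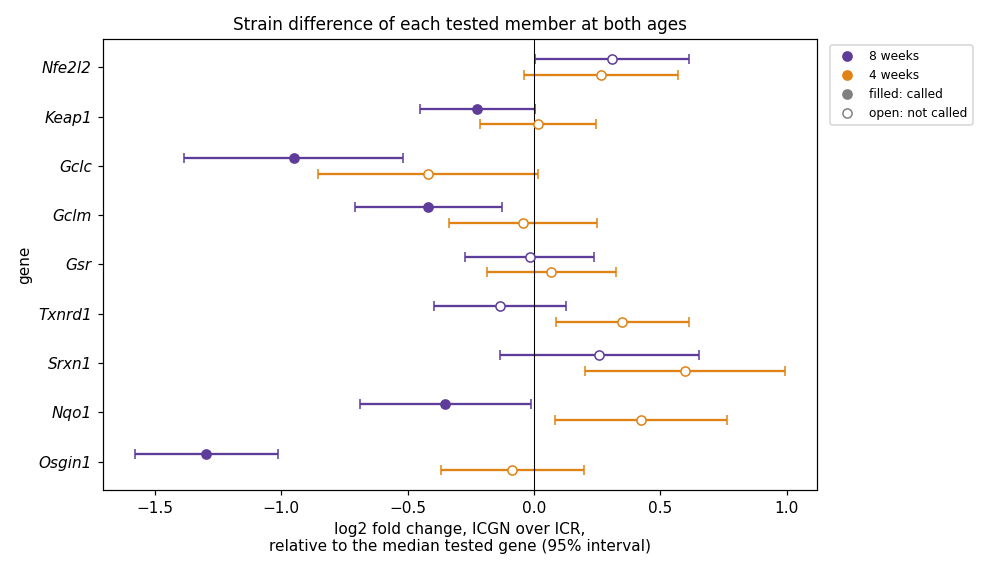
Log2 fold change of ICGN over ICR relative to the median tested gene (x axis) for each tested member (y axis), with 8 weeks in purple and 4 weeks in orange. Bars are 95% intervals of the fit, and filled points were called. Osgin1 lies at -1.30 at 8 weeks and -0.08 at 4 weeks, and Srxn1 lies above 0 at both ages without being called.

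The difference between the strain effects at the 2 ages was tested as an interaction, which asks whether the ICGN over ICR value at 8 weeks differs from that at 4 weeks. It was lower at 8 weeks for 3 of 9 members and higher for 0, against 5.66% and 2.19% of all genes, 7.85% in all. With arrays centred on the tested genes the 3 lower and 0 higher stood against 5.07% and 4.30% of all genes, and under quantile normalization 2 lower and 0 higher stood against 3.27% and 3.83%. Osgin1 had a difference of -1.21 ± 0.19 (limma adjusted p = 0.0016), which passed in each of 12 fits that left out 1 array. Nqo1 had a difference of -0.77 ± 0.23 (adjusted p = 0.022), positive at 4 weeks and negative at 8 weeks. Its call was lost without ICGN 4-week replicate 1 (-0.73, adjusted p = 0.0507), ICGN 4-week replicate 2 (-0.64, adjusted p = 0.0601) or ICR 8-week replicate 3 (-0.72, adjusted p = 0.0528). Txnrd1 had a difference of -0.48 ± 0.17 (adjusted p = 0.0344), and 3 of the 12 such fits kept its call, those without ICR 4-week replicate 3, ICGN 8-week replicate 3 or ICR 8-week replicate 1. It was also lost under quantile normalization (adjusted p = 0.0561), with the mean of its probe sets (adjusted p = 0.171) and without a variance trend (adjusted p = 0.0564). The other 2 probe sets of Txnrd1 were not called (-0.11 and -0.35). Gclc (-0.53) and Gclm (-0.37) did not pass, and both passed without ICR 8-week replicate 1 (adjusted p = 0.049 and 0.0403).

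Within each strain the 8-week arrays were set against the 4-week arrays. The authors' scaling target changed with age as well, so age and any difference in processing between the 2 sets cannot be told apart. In ICR 5 of 9 members rose with age and 0 fell, against 18.0% and 10.7% of all genes, 28.7% in all. Under quantile normalization 4 members were called higher and 1, Nfe2l2 (-0.24, adjusted p = 0.0369), lower, against 13.8% and 16.8% of all genes, and Gsr was no longer called. The ages did not overlap for 6 members, all of them higher at 8 weeks, against 26.1% of all genes higher and 15.9% lower without overlap, 42.1% in all. Gclm rose most of these, with 4673 ± 703 at 8 weeks and 2429 ± 235 at 4 weeks (SD, n = 3; log2 fold change 0.85 ± 0.14, limma adjusted p = 1.7e-04). Nqo1 read 389.7 ± 48.6 at 8 weeks and 242 ± 12.7 at 4 weeks (0.58 ± 0.16, limma adjusted p = 0.0063). Keap1 (0.41), Txnrd1 (0.38) and Gsr (0.28) were the others. In ICR, Gclc stood at -0.01 and Osgin1 at 0.20, neither of them called. The Gsr call held in 1 of 6 fits that left out an array, the one without ICR 8-week replicate 1.

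In ICGN no member was called higher at 8 weeks, and 2 fell, against 6.35% and 12.8% of all genes, 19.1% in all. The ages did not overlap for 4 members, of which Osgin1, Gclc and Srxn1 were lower and Gclm higher at 8 weeks, against 25.7% of all genes lower and 12.1% higher without overlap, 37.9% in all. Osgin1 read 179 ± 13.3 at 8 weeks and 394 ± 64.2 at 4 weeks (SD, n = 3; -1.01 ± 0.13, limma adjusted p = 8.9e-05). Gclc read 1437 ± 289 at 8 weeks and 2184 ± 202 at 4 weeks (-0.54 ± 0.20, limma adjusted p = 0.0452). The Gclc call was lost in every fit that left out an array of ICGN, with adjusted p between 0.0514 and 0.170, while that of Osgin1 was kept in all 6. Gclm, at 0.47 ± 0.14, missed the threshold in ICGN (adjusted p = 0.0563). It was called higher without ICGN 8-week replicate 1 (0.50, adjusted p = 0.0304), with arrays centred on the tested genes and under quantile normalization. These age comparisons share their arrays with the strain comparisons and add no independent evidence to them.

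Probe sets of 1 gene did not always move together with age. In ICR the brightest Keap1 probe set was called higher (0.42), while the other stood at -0.41 (adjusted p = 0.118). In ICGN that second probe set was called lower, at -0.61 ± 0.15 (adjusted p = 0.0067), and the first stood at 0.14. The brightest Txnrd1 probe set was called higher in ICR (0.39) and its neighbours stood at -0.30 and 0.09. For Srxn1 the brightest probe set was called in neither strain. A dimmer one was called lower in ICR (-0.55, adjusted p = 0.0494) and another in ICGN (-0.56, adjusted p = 0.0412). The second Gclc probe set was not called in ICGN (-0.33, adjusted p = 0.115), nor the second Gsr probe set in ICR (-0.0003). Averaging the probe sets of a gene took the ICR age calls of Keap1, Txnrd1 and Gsr away. In the strain comparisons the probe sets of Gclc, Gclm, Srxn1 and Nfe2l2 had the same sign at each age.

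**Figure D3:**
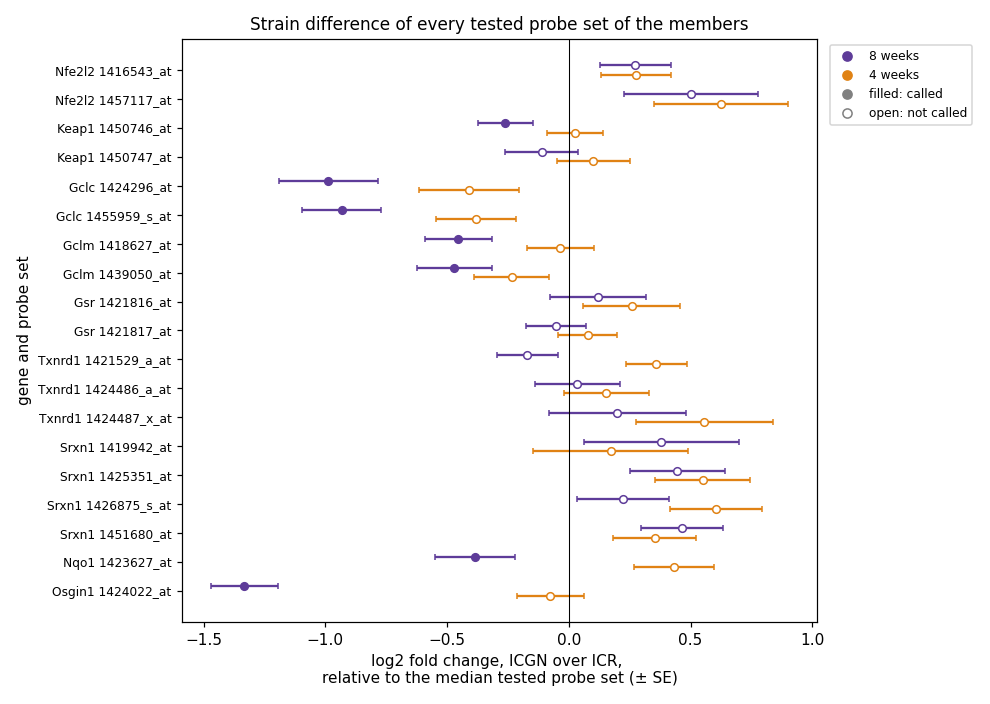
Log2 fold change of ICGN over ICR relative to the median tested probe set (x axis) for the 19 tested probe sets of the members (y axis), with 8 weeks in purple and 4 weeks in orange. Bars are standard errors, and filled points were called. Both Gclc probe sets sit near -0.9 to -1.0 at 8 weeks, and all 4 of Srxn1 lie above 0 at both ages.

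Other genes of the pathway were read from lists chosen with earlier results of these data known. Together 7 lists held 72 tested genes, of which 11 rose and 29 fell at 8 weeks, while at 4 weeks 4 rose and 1 fell. This split depended on the scaling. At 8 weeks it was 15 higher and 23 lower with arrays centred on the tested genes, 16 and 11 under quantile normalization, and 17 and 15 under the authors' scaling. Their median, relative to all genes, was -0.14 at 8 weeks and 0.00 at 4 weeks. Over all genes the shares higher and lower at 8 weeks were 8.51% and 26.0% with arrays at a common median, 12.8% and 19.6% with arrays centred on the tested genes, and 13.7% and 13.4% under quantile normalization. Under the authors' scaling 2226 of the 12385 genes were higher and 1484 lower. Of 9 regulators tested, 4 fell at 8 weeks and 0 rose. Btrc, an adaptor of another ubiquitin ligase that targets NRF2, stood at -0.60, Bach2, a relative of the repressor BACH1, at -0.31, the autophagy receptor Sqstm1, which binds KEAP1, at -0.30 and Cul3 at -0.28. The Btrc call held under all 4 scalings and the Cul3 call under none of the other 3, and Sqstm1 was called higher at 4 weeks under those 3 scalings. At 8 weeks the Sqstm1 call was lost under quantile normalization and the Bach2 call under the authors' scaling. The 4 lower became 3 with arrays centred on the tested genes and 2 under quantile normalization or the authors' scaling. The small MAF genes Mafg (-0.15) and Mafk (-0.14) and the repressor gene Bach1 (0.27) did not pass, though Bach1 was called higher under the authors' scaling.

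Glutathione synthesis and use had 13 tested genes, of which 8 fell and 2 rose at 8 weeks. Ggct, which splits gamma-glutamyl peptides, fell most, with 370 ± 124 in ICGN and 1149 ± 272 in ICR (SD, n = 3; -1.45 ± 0.24, limma adjusted p = 1.7e-04). Gss, the glutathione synthetase gene that acts after Gclc and Gclm, read 1599.8 ± 239 in ICGN and 2777 ± 199 in ICR (-0.61 ± 0.13, limma adjusted p = 4.2e-04). Glrx, the glutaredoxin gene, stood at -0.71. The peroxidase genes Gpx7 (0.86) and Gpx8 (0.97), whose products reside in the endoplasmic reticulum, were the 2 that rose. The 5 genes named here kept their calls under all 4 scalings, whereas the count of 8 lower became 5 with arrays centred on the tested genes and 3 under quantile normalization or the authors' scaling. None of the 13 was called at 4 weeks.

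In the thioredoxin and peroxiredoxin list 5 of 9 genes fell at 8 weeks, with Txn2 at -0.53 and Txn1 at -0.33, and 2 rose. These were Txnip, the gene of a thioredoxin-binding inhibitor (0.97), and Prdx4, a peroxiredoxin of the endoplasmic reticulum (0.81). Of 7 genes of NADPH supply 3 fell and 0 rose. Me1, the malic enzyme gene, read 3262 ± 585 in ICGN and 8247 ± 1248 in ICR (-1.15 ± 0.16, limma adjusted p = 3.1e-05). All 4 superoxide dismutase and catalase genes fell at 8 weeks, Sod3 most (-0.81). Txn2, Txnip, Prdx4, Me1, Sod2 and Sod3 kept their calls under all 4 scalings, and the calls of Txn1 and Sod1 were lost under each of the other 3. The thioredoxin list's 5 lower became 4 with arrays centred on the tested genes and 1 under quantile normalization or the authors' scaling. For NADPH supply the 3 lower became 1 under quantile normalization. The 4 dismutase and catalase genes lower became 2 under quantile normalization and 3 with centred arrays or the authors' scaling. At 4 weeks no gene of these 3 lists was called, although 1 gene of NADPH supply was called higher under quantile normalization and under the authors' scaling.

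The remaining lists held heme, iron and detoxification targets, and Atf4 with targets of its product. Hmox1, the heme oxygenase gene and a known NRF2 target, read 1374, 1694 and 419 in ICGN at 4 weeks, against 123, 61.6 and 101 in ICR, a log2 fold change of 3.33 ± 0.40 (limma adjusted p = 4.6e-04). The strains were far apart, though ICGN replicate 3 was well below the other ICGN arrays. At 8 weeks Hmox1 read 156, 219 and 282 in ICGN and 209, 195 and 337 in ICR, and the groups overlapped (0.02 ± 0.40). Of 21 tested genes of this list 3 rose at 4 weeks, Hmox1, the epoxide hydrolase gene Ephx1 (1.10) and the glutathione transferase gene Gsta4 (0.90), and 0 fell. ICGN replicate 3 was again well below the other ICGN arrays, at 640 against 1128 and 1287 for Ephx1. For Gsta4 it read 630 against 1100 and 1150, close to the highest ICR array at 597. At 8 weeks 4 rose and 3 fell, with the microsomal glutathione transferase gene Mgst1 (1.49) and the efflux pump gene Abcc4 (1.36) highest and Gstp1 (-0.72) lowest. Under the authors' scaling 8 rose and 2 fell. ATF4 is a factor of the amino acid response that also acts on Slc7a11. Of 11 tested genes in its list, Atf4 among them, 3 rose and 2 fell at 8 weeks. Atf3 stood at 2.18, Asns at 1.00 and Shmt2 at -0.71, and Atf4 was the other that fell. The Atf4 call was lost under quantile normalization and under the authors' scaling.

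**Figure D4:**
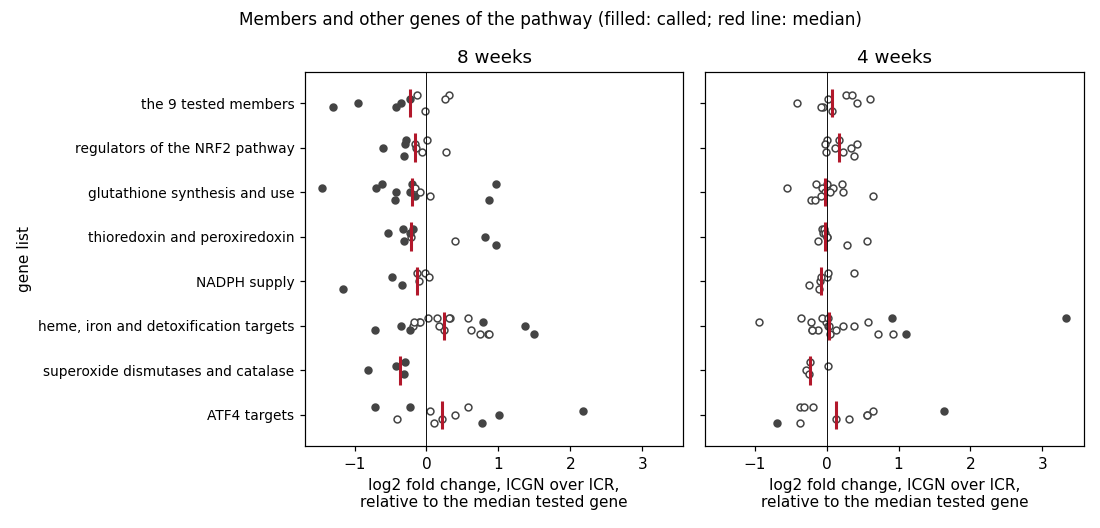
Log2 fold change of ICGN over ICR relative to the median tested gene (x axis) for the members and for 7 other gene lists of the pathway (y axis), at 8 weeks on the left and 4 weeks on the right. Each point is a gene, filled where called, and the red line is the list median. At 4 weeks the point far to the right is Hmox1 at 3.33, and at 8 weeks the list of glutathione genes reaches down to -1.45.

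Markers of cell types moved with the same comparison. At 8 weeks 12 of 15 proximal tubule markers fell and 0 rose, and their summed signal ran from 68014.5 to 87579.9 in ICGN, against 115797 to 142775 in ICR, without overlap. Of 14 macrophage and dendritic cell markers 13 rose, with sums of 11613 to 15374 in ICGN and 4410.2 to 6087 in ICR, and 8 of 9 injured tubule markers rose. Under quantile normalization 6 proximal tubule markers fell and 1 rose. Of 6 endothelial markers 5 fell, and of 6 thick limb and distal tubule markers 3 fell. Under each of the other 3 scalings 3 endothelial markers fell, and under quantile normalization 1 thick limb and distal tubule marker rose. At 4 weeks 0 of 15 proximal tubule markers were called, with sums of 78554 to 102002 in ICGN and 95741 to 108439 in ICR that overlapped. At that age 10 of 14 macrophage and dendritic cell markers rose, with sums of 5591 to 8030 in ICGN and 3084 to 4029 in ICR. Of 9 injured tubule markers 4 rose at 4 weeks, with sums of 5677 to 5946 in ICGN and 3511 to 3814 in ICR. Of 6 thick limb and distal tubule markers 2 fell at 4 weeks, with sums of 26582 to 32367 in ICGN and 33441 to 39067 in ICR. Neither pair of sums overlapped. No tested marker was at 0 on any array. Fewer cells of a type and less RNA per cell cannot be told apart in whole cortex, and the part of these shifts in the members' values was not tested. As a sign of RNA quality, the Actb control probe sets gave a 3′ over 5′ ratio of 1.61 ± 0.04 in 8-week ICGN and 1.94 ± 0.21 in 8-week ICR (SD, n = 3). A two-sided exact permutation test gave p = 0.1, which is as low as 3 against 3 arrays can go, and its part was not tested either. At 4 weeks the ribosomal RNA control signal was 269 ± 21.7 in ICGN and 397 ± 17.5 in ICR (SD, n = 3), without overlap and with the same exact permutation p of 0.1, and its part was not tested.

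The genes whose log2 values ran most alike to a member over the 12 arrays are given as a description, since the arrays fall into 4 groups and share one scaling. For Osgin1 they were Rnf10 (Pearson r 0.968), Pmpca and Pnpla6. For Gclc they were Ndufv3 (0.969), Rnls and Fdx1, and for Gclm Arfgef1 (0.981), Thoc3 and Ephx2. Keap1 ran closest to Gm2a (0.980), Gsr to Cep44 (0.940) and Nfe2l2 to Srbd1 (0.918). Txnrd1 ran closest to Mafk (0.924) and Srxn1 to Reck (0.896). Nqo1 ran closest to Hcn2 (0.886) and Phf5a, then Txnrd1 (0.877), the one case of another member among the closest 3 genes.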

How the data were processed

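Per the labels' protocols, biotinylated cRNA made from renal cortex RNA went onto Affymetrix Mouse Genome 430 2.0 arrays. The authors deposited linear signal intensity, and MAS5 is the tool named in the submitters' processing notes. The sources used here give neither its version nor a genome build. The mean after trimming 2% at each end was 100.0 on every 4-week array and 500.0 on every 8-week array, so the authors scaled each age to its own target. Of the probe sets, 34945 carry 1 gene symbol in the array annotation, 932 carry several and 9211 carry none. RefSeq gene IDs matched for 34741, and 0 symbols changed.

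From there, with R 4.3.3 and limma 3.58.1, arrays were scaled to a common median and turned into log2(signal + 9), where 9 is the 25th percentile of the deposited values. The offset makes folds of dim genes smaller. A model of 4 group means with a mean-variance trend was fitted to all 12 arrays, and each contrast was adjusted by Benjamini-Hochberg over 12385 genes. On simulated data for the 8-week comparison over 12385 genes, it recovered 74% of 100 genes changed by 1 and 15% of 100 changed by 0.5 on the log2 scale. The number of arrays, 3 a group, limits the precision. Members, lists and tests were chosen with earlier results of these data known. All members are named. From each list, up to 3 called genes with the largest changes in each direction may be named, with Hmox1, Tns2 and the 3 genes most like each member. Cul3, Mafg, Mafk, Bach1 and Sod1 were named after their values were seen. The lists were recomputed under the other scalings after the data were seen.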

Additional observations from a re-analysis of the deposited data

Results flagged for a closer look

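The strain difference changed between the ages for 3 members by the interaction test. The value at 8 weeks minus that at 4 weeks was -1.21 for Osgin1, -0.77 for Nqo1 and -0.48 for Txnrd1 on the log2 scale, relative to the median gene. Osgin1 was close to ICR at 4 weeks and far below it at 8 weeks. Nqo1 and the brightest Txnrd1 probe set had all ICGN arrays above all ICR arrays at 4 weeks, as had 10.8% of all genes. Neither was called at that age with arrays at a common median, and the other Txnrd1 probe sets overlapped. Nqo1 had all ICGN arrays below all ICR arrays at 8 weeks, as had 33.3% of all genes. Of 12 fits that left out 1 array, 9 kept the interaction call of Nqo1 and 3 that of Txnrd1. No cause was tested.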

How the results depend on the processing

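For the members, quantile normalization gave 2 calls at 4 weeks and 3 at 8 weeks, against 0 and 5, and the authors' scaling gave 2 at 4 weeks. For 8 over 4 weeks in ICGN, 1 call in place of 2 was left with no filter, with the mean of a gene's probe sets and without a variance trend, and that mean left 2 of 5 in ICR. The all-gene shares called lower in ICGN were then 7.62%, 13.0% and 12.3%, and with that mean 15.4% were called higher in ICR. Leaving out each replicate in turn gave 0 to 0 calls at 4 weeks, 4 to 6 at 8 weeks, 1 to 5 in the interaction, 1 to 2 for age in ICGN and 4 to 5 for age in ICR. Of all genes these fits called 16.9% to 28.3% lower at 8 weeks and 2.35% to 7.01% lower in the interaction. At 4 weeks they called 0.719% to 1.35% higher and 0.630% to 1.16% lower. For age they called 7.93% to 13.7% lower and 3.72% to 7.31% higher in ICGN, and 11.7% to 17.3% higher in ICR. The causes were not tested. With a replicate block the calls were 0 at 4 weeks, 6 lower at 8 weeks, 3 lower in the interaction, 2 for age in ICGN and 5 higher for age in ICR. The block's all-gene shares higher and lower were 1.58% and 1.59% at 4 weeks, 8.62% and 27.9% at 8 weeks, and 2.57% and 8.07% in the interaction. For age with the block they were 6.99% and 13.8% in ICGN and 20.0% and 11.1% in ICR. The 2 for age in ICGN were then 1 higher (Gclm) and 1 lower (Osgin1) in place of 2 lower, as they were with arrays centred on the tested genes. Arrays of the same number correlated between -0.10 and 0.11 in their deviations, and arrays of other numbers between -0.16 and 0.15. No shared effect of the number was seen, but with 3 arrays a group this cannot settle whether the numbers pair the samples. No called value changed sign. Over all genes, the 8-week split of 1054 higher and 3224 lower became 1586 and 2422 with arrays centred on the tested genes, 1700 and 1664 under quantile normalization, and 2226 and 1484 under the authors' scaling. For age in ICR, 2224 higher and 1326 lower became 1715 and 2080 under quantile normalization. The 4-week count of 198 higher and 171 lower became 338 and 224 under quantile normalization, 102 and 89 without ICGN replicate 1, 89 and 78 without ICGN replicate 2, and 113 and 121 without ICR replicate 2. The interaction's 271 higher and 701 lower became 532 and 628 with centred arrays, 474 and 405 under quantile normalization, and 139 and 327 without ICGN 4-week replicate 2, the lowest of the 12.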
